A study of Rattus norvegicus with 12 samples.

Results

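Cyclins are the regulatory subunits that switch on cyclin-dependent kinases (CDKs), and their genes are turned on in a set order as a cell leaves rest, copies its DNA and divides. D-type cyclins act with CDK4 and CDK6 in G1, E-type cyclins act with CDK2 at the start of S phase, cyclin A2 acts in S and G2, and the B-type cyclins act with CDK1 at mitosis. In the liver after partial hepatectomy (PH), resting hepatocytes enter this cycle together, and cyclin D1 is a classical marker of their passage through G1. Here 10 genes of this family were sought by name in the deposited table of 14692 genes: CCND1, CCND2, CCND3, CCNE1, CCNE2, CCNA2, CCNB1, CCNB2, CDK1 and CDK4. Of these, 7 were found by name. CDK1 was listed under its older symbol CDC2, which RefSeq gives as a synonym, and is reported beside the 7. No values of CCND3 and CDK4 were analysed here, since neither name was found.

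The values are RPKM, which scales the reads on a gene by its length and by the depth of its library, from poly(A) RNA of whole liver of male Sprague Dawley rats 4 to 5 months old. Control rats had a sham biliary fistula and the other rats a biliary fistula that drained bile, each made 24 h before PH, and all rats received saline into the duodenum. In 1 of the fistula groups sodium taurocholate, a bile acid (BA), was infused into the duodenum as well, from 12 h before PH. This replaces BA but not the other constituents of bile, and it preceded the 0 h livers. Livers were taken at 0, 4, 12 and 24 h after PH, which gives 12 columns for 3 groups. The column prefixes are Control, BF and BA. The labels do not agree on them: the study's figures use BF for the drained rats and BA for the infused rats, whereas the sample descriptions give the infusion to the columns titled BF. At 0 h CYP7A1, which encodes the rate-limiting enzyme in the making of BA from cholesterol, stood at 387 RPKM in the BF column, 54.9 in the BA column and 60.0 in the Control column. BF was above BA at 4 h (13.8 and 1.81 RPKM), 12 h (136 and 3.17) and 24 h (334 and 68.8) as well. The paper reports by qPCR that Cyp7a was raised in its drained rats, a change reversed by BA infusion. By that report the higher CYP7A1 values go with BF as the drained group, as in the study's figures. The labels alone do not settle which fistula group received BA, since the sample descriptions read otherwise. The prefixes are therefore used below as names of columns.

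Behind each column stand 4 rats: a run of 1 rat was combined with a run of RNA pooled from 3 others. No group has a replicate column at any time, no spread between rats can be computed, and the number of reads is unknown. A difference between 2 columns therefore has no test and is given as a log2 ratio of RPKM + 1. The added 1 makes changes of weakly expressed genes look smaller than they are. A log2 ratio of 1 or more in size (2-fold) is counted. Changes over time were tested with limma in an additive fit to all 12 columns, in which the 3 prefixes act as blocks: an adjusted p then asks whether a change over time exceeds its spread between Control, BF and BA. The same fit tests differences between prefixes against their spread over the 4 times. The fit covered 8459 genes whose mean reached 1 RPKM.

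The columns were of liver: 4 of 5 hepatocyte markers were found and summed to between 71156 and 337301 RPKM. Summed markers of other cells were far lower, from 158.4 to 269.3 RPKM for macrophages (5 of 5 found), 11.2 to 22.0 for stellate cells (5 of 5), 15.3 to 21.3 for endothelium (2 of 5), 4.82 to 13.4 for cholangiocytes (2 of 4), 2.73 to 7.80 for leukocytes (5 of 5) and 101.7 to 288.8 for erythroid cells (3 of 4). None of these lists was at 0 in a column. In the BA column at 4 h ALB alone took 30.9% of the RPKM total, while the most abundant gene took 5.98% to 13.4% in the other columns. In the BF column at 12 h, 9 pancreatic acinar genes (of 10) summed to 143.2 RPKM, against 5.22 to 23.4 elsewhere. The median of all genes tested shifted by 0.21 on the log2 scale from 0 to 24 h in the fit, and by -0.20 from 0 to 4 h. In whole liver a change in the share of cycling cells and a change in RNA per cell cannot be told apart.

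The members differed widely in how much they changed. The A- and B-type cyclins and CDC2 were at or below 4.72 RPKM at 0, 4 and 12 h and were between 28.2 and 136 RPKM at 24 h, apart from CCNB2, which stayed low. The E-type cyclins were at a few RPKM before 24 h and rose several-fold at 24 h. CCND1 was already expressed at 0 h, fell at 4 h and was highest at 24 h, while CCND2 moved little. The highest value lay at 24 h for every member found by name in every prefix, 21 of 21 pairs of member and prefix. When columns were scaled to a common median gene this held for 20 of 21, the exception being CCND2 in BA.

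**Figure D1:**
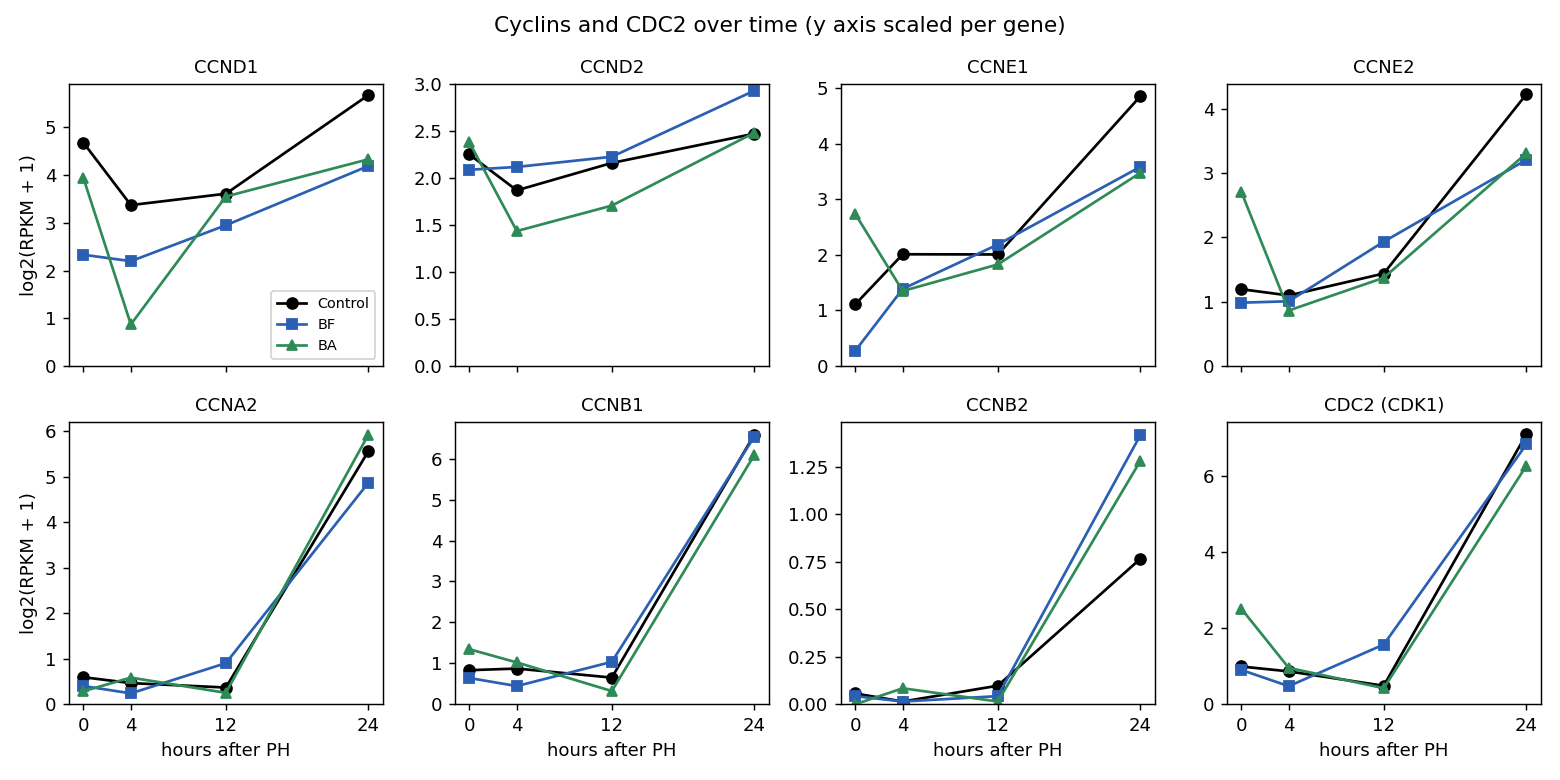
Level of each gene, as log2(RPKM + 1), against hours after PH, with 1 line for each column prefix (black circles Control, blue squares BF, green triangles BA) and a y axis scaled for each gene. CCNA2, CCNB1 and CDC2 stay low to 12 h and rise steeply to 24 h, though CDC2 in BA first falls from 4.72 to 0.34 RPKM. CCND1 dips at 4 h in Control and BA, changes little by then in BF, and ends highest in Control at 49.9 RPKM.

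CCND1, which encodes cyclin D1 and carries mitogen signals to CDK4 and CDK6, was at 24.6 RPKM at 0 h in Control, 9.33 at 4 h, 11.2 at 12 h and 49.9 at 24 h. In BF it was at 4.03 RPKM at 0 h, 3.58 at 4 h, 6.71 at 12 h and 17.2 at 24 h. In BA it was at 14.3 RPKM at 0 h, 0.83 at 4 h, 10.7 at 12 h and 19.1 at 24 h. Control was thus the highest of the 3 columns at each time, and each prefix had its lowest value at 4 h. The fall from 0 to 4 h was -1.50 on the log2 scale (SE 0.47, limma adjusted p = 0.029), among 32.4% of all genes called lower. The log2 ratio of 4 h to 0 h was -3.07 in BA, -1.31 in Control and -0.14 in BF. Without the BA column at 4 h, in which ALB stood apart, the difference was -0.85 (limma adjusted p = 0.10), and without all BA columns -0.72 (adjusted p = 0.19). The call was also lost without the Control columns (-1.60, adjusted p = 0.081) and without the filter (adjusted p = 0.053).

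From 0 to 24 h CCND1 differed by 1.08 (SE 0.47, limma adjusted p = 0.10), which did not pass the threshold, with a log2 ratio of 0.99 in Control, 1.86 in BF and 0.39 in BA. It passed without the BA columns (1.42, adjusted p = 0.033) and without the BA column at 4 h alone (adjusted p = 0.028). From 12 to 24 h the difference was 1.36 (SE 0.47, adjusted p = 0.042). That last call was lost with a pseudocount of 0.1 or 0.5 RPKM, without the filter, with rescaled columns, without the Control or the BF columns, or without the BF column at 12 h (adjusted p from 0.058 to 0.24).

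CCND2, which encodes cyclin D2, ranged only from 1.71 to 6.64 RPKM over the 12 columns. In Control it was at 3.77 RPKM at 0 h, 2.66 at 4 h, 3.48 at 12 h and 4.56 at 24 h, and in BF at 3.26, 3.35, 3.69 and 6.64 at the same times. In BA it went from 4.22 RPKM at 0 h to 1.71 at 4 h, 2.27 at 12 h and 4.60 at 24 h. The 24 h columns of Control and BA, at 4.56 and 4.60 RPKM, were close to the 4.22 RPKM of BA at 0 h. The difference from 0 to 24 h was 0.39 (SE 0.18, limma adjusted p = 0.11, 95% interval -0.013 to 0.79), not past the threshold. From 12 to 24 h it was 0.60 (SE 0.18, adjusted p = 0.024), a call lost with columns scaled to the median gene (0.33, adjusted p = 0.21), without any of the 3 prefixes (adjusted p from 0.062 to 0.088) and without the BF column at 12 h (adjusted p = 0.059). RPKM allows levels of different genes to be set side by side: at 24 h CCND1 was 10.9 times CCND2 in Control, 4.15 times in BA and 2.59 times in BF.

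CCNE1, which encodes cyclin E1 and activates CDK2 at the entry into S phase, was at 1.16 RPKM at 0 h in Control, 3.03 at 4 h, 3.02 at 12 h and 27.9 at 24 h. In BF it was at 0.21 RPKM at 0 h, 1.62 at 4 h, 3.55 at 12 h and 11.0 at 24 h. In BA it was at 5.66 RPKM at 0 h, 1.55 at 4 h, 2.55 at 12 h and 10.1 at 24 h. The Control column at 24 h was far above the other 11, and BA at 0 h was above the other 0 h columns. The rise from 0 to 24 h was 2.60 (SE 0.53, limma adjusted p = 0.0058). In BF, CCNE1 was the earliest member to pass 2-fold over 0 h, at 4 h, from a start of 0.21 RPKM.

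CCNE2, the paralog cyclin E2, was at 1.29 RPKM at 0 h in Control, 1.14 at 4 h, 1.71 at 12 h and 17.7 at 24 h. In BF the values were 0.98, 1.01, 2.82 and 8.22 RPKM in the same order of times. In BA they were 5.55, 0.82, 1.59 and 8.89 RPKM. The pattern was that of CCNE1: Control highest at 24 h, and BA highest at 0 h. The rise from 0 to 24 h was 1.95 (SE 0.43, limma adjusted p = 0.0082). Both E-type rises lost the call when the Control or the BF columns were left out (adjusted p from 0.080 to 0.10), and the log2 ratio of 24 h to 0 h in BA was 0.74 for CCNE1 and 0.59 for CCNE2. Without the BA columns the rises were 3.52 and 2.62. At 24 h CCNE1 was at 1.58 times CCNE2 in Control, 1.34 times in BF and 1.14 times in BA.

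CCNA2, CCNB1, CCNB2 and CDK1 are genes of S phase, G2 and mitosis whose transcription is held down in resting cells, in part by the DREAM complex at promoter elements. In cycling cells MYB-MuvB, FOXM1 and the factor NF-Y act at such promoters to activate them. Because these genes moved together, the promoters held in the RefSeq tables of assembly GRCr8 are shown for the 4 genes of the family that matched (CCNB1, CCNB2, CDK1 and CCNE1). The search covered the 250 bases before the start used in that table. The gene records of CCNB2, CDK1 and CCNE1 begin 59, 41 and 77 bases further upstream, and those bases were searched but are not shown. The stretches shown are upstream of the gene record, read on the strand of the gene: CCNB1 at chr2:33655226-33655475 (minus strand), CCNB2 at chr8:79981718-79981908 (minus), CDK1 at chr20:19265043-19265251 (plus) and CCNE1 at chr1:99927987-99928159 (minus). Capitals mark matches on either strand to the NF-Y box CCAAT, to letters used for cell cycle homology regions (TTTGAA, and as a variant TTTAAA), and to the E2F letters TTTNGCGC. Matches of different motifs did not overlap.
CCNB1: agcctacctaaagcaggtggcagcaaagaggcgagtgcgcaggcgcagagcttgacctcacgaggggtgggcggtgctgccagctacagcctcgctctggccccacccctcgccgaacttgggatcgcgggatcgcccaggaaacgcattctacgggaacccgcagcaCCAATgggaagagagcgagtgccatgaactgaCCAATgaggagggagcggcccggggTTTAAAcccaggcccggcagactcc
CCNB2: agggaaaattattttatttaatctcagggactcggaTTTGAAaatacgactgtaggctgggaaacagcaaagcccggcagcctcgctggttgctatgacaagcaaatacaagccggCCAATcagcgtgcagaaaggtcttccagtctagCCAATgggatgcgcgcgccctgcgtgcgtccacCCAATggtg
CDK1: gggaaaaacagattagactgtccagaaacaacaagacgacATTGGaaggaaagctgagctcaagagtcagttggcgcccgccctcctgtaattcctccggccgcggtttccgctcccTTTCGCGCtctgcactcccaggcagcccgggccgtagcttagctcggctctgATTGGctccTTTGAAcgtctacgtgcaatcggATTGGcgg
CCNE1: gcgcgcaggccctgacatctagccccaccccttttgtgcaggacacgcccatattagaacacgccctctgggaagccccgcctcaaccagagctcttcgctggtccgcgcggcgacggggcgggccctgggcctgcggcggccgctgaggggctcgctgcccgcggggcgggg
CCAAT was present in CCNB1, CCNB2 and CDK1, with 2, 3 and 3 matches, and absent from CCNE1. Of 33469 promoters in the table, 34.0% hold at least 1 CCAAT in the same window. TTTGAA occurred 2 times each in CCNB2 and CDK1 (16.2% of all promoters hold it), and TTTAAA 1 time each in CCNB1 and CCNE1 (12.3%). The E2F letters were found in CDK1 (1.04% of all promoters). Counted from the start in the table, the TTTAAA of CCNB1 began at position -25 and the nearest CCAAT at -50. In CCNB2 TTTGAA began at -43 and the nearest CCAAT at -68, and in CDK1 they began at -16 and -49. These TTTGAA, and the TTTAAA of CCNE1 at -38, lie in the bases that are not shown. The other TTTGAA began at -214 in CCNB2 and at -72 in CDK1. These are matches of letters only.

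CCNA2, which encodes cyclin A2, was at 0.51 RPKM at 0 h in Control, 0.38 at 4 h, 0.29 at 12 h and 46.2 at 24 h. In BF it was at 0.32 RPKM at 0 h, 0.18 at 4 h, 0.87 at 12 h and 28.2 at 24 h. In BA it was at 0.22 RPKM at 0 h, 0.50 at 4 h, 0.19 at 12 h and 59.8 at 24 h. No value before 24 h reached 1 RPKM, and the lowest column at 24 h was BF. The rise from 0 to 24 h was 5.02 on the log2 scale (SE 0.26, limma adjusted p = 5e-06).

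CCNB1, which encodes cyclin B1, the partner of CDK1 at entry into mitosis, was at 0.78 RPKM at 0 h in Control, 0.83 at 4 h, 0.57 at 12 h and 95.3 at 24 h. In BF it was at 0.56, 0.36, 1.05 and 92.0 RPKM at the same times, and in BA at 1.54, 1.03, 0.25 and 67.2 RPKM. At 24 h Control and BF were close to each other, with BA below both. The rise from 0 to 24 h was 5.47 (SE 0.26, limma adjusted p = 3.3e-06).

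CDC2 (CDK1), the kinase subunit that B-type cyclins activate, was at 0.99 RPKM at 0 h in Control, 0.82 at 4 h, 0.40 at 12 h and 136 at 24 h. In BF it was at 0.87 RPKM at 0 h, 0.39 at 4 h, 1.97 at 12 h and 113 at 24 h. In BA it was at 4.72 RPKM at 0 h, 0.94 at 4 h, 0.34 at 12 h and 76.0 at 24 h. It had the highest level of the family at 24 h in each prefix. The rise from 0 to 24 h was 5.26 (SE 0.46, limma adjusted p = 1e-04).

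CCNB2, which encodes cyclin B2, stayed far below CCNB1. It was at or below 0.07 RPKM in the 9 columns before 24 h, where BA at 0 h was listed at 0. The 24 h values were 0.70 RPKM (Control), 1.67 (BF) and 1.43 (BA). CCNB1 was 136.1 times CCNB2 in Control at 24 h, 55.1 times in BF and 47.0 times in BA. With a mean of 0.34 RPKM it did not enter the fit. In a fit of all 12388 genes above 0 the difference from 0 to 24 h was 1.12 (SE 0.13, limma adjusted p = 0.0015). That fit called 21.7% of genes higher.

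Of the 7 members, 6 passed the filter on low values, and CCNA2 and CCNB1 did so only through their 24 h columns, so that for those genes a difference was built into the selection. Among the 6, limma called CCNE1, CCNE2, CCNA2 and CCNB1 higher at 24 h than at 0 h, beside 30.6% of all genes tested, and 0 lower (background 5.54%). In the fit without a filter, which takes in all 7, the same genes and CCNB2 were called higher, beside 21.7% of 12388 genes. From 12 to 24 h all 6 were called higher, beside 43.6% of genes (1.8% were lower). Of these calls only CCNA2, CCNB1 and CCNE2 held with columns scaled to the median gene. From 0 to 12 h limma called 0 of the 6 in either direction (background 9.03% higher and 22.5% lower), and 0 had an unadjusted p under 0.05. From 0 to 4 h 0 members were called higher (background 12.9%). The calls of CCNA2, CCNB1 and CDC2 from 0 to 24 h held under every alternative run, with adjusted p of at most 0.0014, 0.0012 and 0.0073. For CCNA2 and CCNB1 every alternative except the fit without a filter kept the selection through the 24 h columns. In that fit limma gave them adjusted p of 4.6e-05 and 3.4e-05. Relative to the median gene, the rises were 4.81 for CCNA2, 5.25 for CCNB1, 5.04 for CDC2, 2.40 for CCNE1 and 1.75 for CCNE2.

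**Figure D2:**
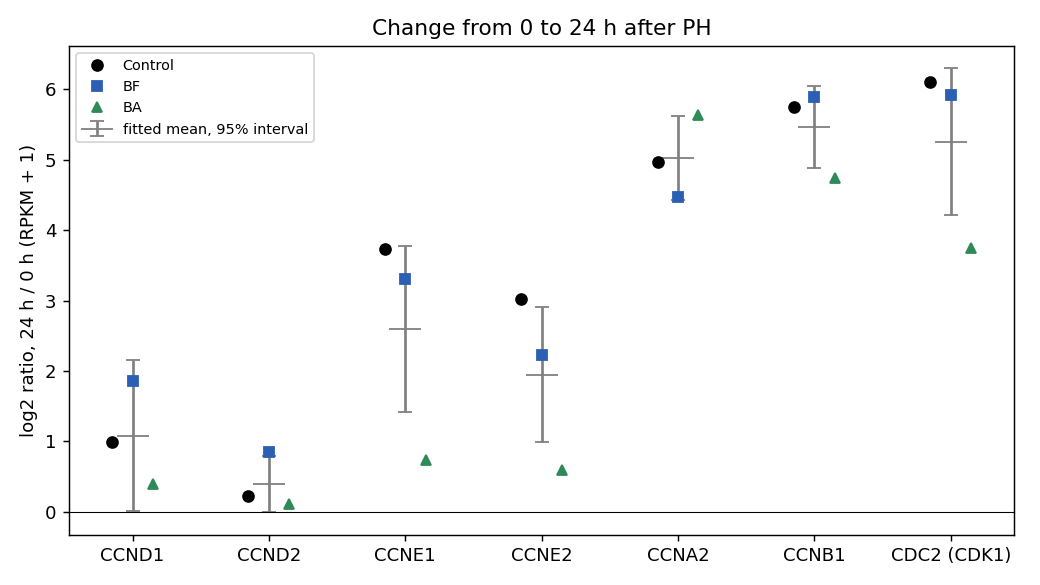
Log2 ratio of 24 h to 0 h (RPKM + 1) for each gene in Control (black circles), BF (blue squares) and BA (green triangles), with the fitted mean and its 95% interval in grey. The 3 prefixes of CCNA2, CCNB1 and CDC2 all lie above 3.7, while BA lies below 1 for both D-type and both E-type cyclins.

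The count of members that passed 2-fold over 0 h was taken in each prefix. At 24 h in Control 4 of 7 members had passed it (CCNE1, CCNE2, CCNA2 and CCNB1), beside 8.29% of all genes. In BF 6 had passed it, all but CCND2, beside 9.27% of genes. The lower count in Control depended on the pseudocount, since 6 of 7 passed in Control with 0.5 RPKM, as many as in BF, and CCND1 in Control was just short at 0.99. In BA the 3 were CCNA2, CCNB1 and CCNB2, beside 3.83% of genes. No member was 2-fold lower at 24 h in Control (background 3.03%), BF (1.88%) or BA (1.41%). At 4 h, 1 member was 2-fold higher in BF (CCNE1, background 5.13%) and 0 in Control (4.01%) and BA (4.61%). At that time CCND1 was 2-fold lower in Control (background 5.19%), none of the 7 was in BF (6.92%), and CCND1, CCNE1 and CCNE2 were in BA (13.2%). At 12 h CCNE1 was still 2-fold higher in BF (2.46%), and no member was in Control (3.96%) or BA (1.29%). CCND1 was then 2-fold lower in Control (9.94%), CCNE2 and CCNB1 in BA (5.77%), and none of the 7 in BF (5.15%). CDC2, which is not counted among the 7, was 2-fold lower than at 0 h in BA at 4 h (log2 ratio -1.56) and at 12 h (-2.09). With 4 times, no order of G1, S and mitotic cyclins could be read from separate peaks, since all were highest at 24 h. At 12 h CCND1 was at 6.71 to 11.2 RPKM, CCND2 at 2.27 to 3.69, CCNE1 at 2.55 to 3.55 and CCNE2 at 1.59 to 2.82. CCNA2 was at 0.19 to 0.87 RPKM at that time, CCNB1 at 0.25 to 1.05 and CDC2 at 0.34 to 1.97. The range of CCND2 overlapped with those of CCNE1 and CCNE2, that of CDC2 with CCNE2, and those of CCNA2 and CCNB1 with each other.

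Before PH the columns already differed. CCND1 was 2-fold lower in BF than in Control (log2 ratio -2.35, background 2.16% of genes lower and 1.73% higher). CCNE1 and CCNE2 were 2-fold higher in BA than in Control, with log2 ratios of 1.62 and 1.52 (background 1.87% higher and 2.15% lower). Against BA, BF was 2-fold lower for CCND1, CCNE1 and CCNE2 (background 1.39% lower and 0.426% higher). CDC2 in BA was likewise 2-fold above Control (log2 ratio 1.52), and in BF it was 2-fold below BA (-1.61). CCNB1 had its highest 0 h value in BA as well, whereas CCNA2 had its lowest there. Each of these is 1 column against 1 and was not tested.

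At 4 h CCND1 was 2-fold lower than in Control in BF (-1.17, background 3.16% lower and 1.19% higher) and in BA (-2.50, background 5.26% lower and 2.02% higher). It was 2-fold higher in BF than in BA (1.32, background 2.39% higher and 2.33% lower), where BA is the column that ALB dominated, and the part of that share in the result was not tested.

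At 12 h the highest of the 3 columns was BF for CCND2, CCNE1, CCNE2, CCNA2, CCNB1 and CDC2. CDC2, at 1.97 RPKM in BF, was there 2-fold above Control (log2 ratio 1.09) and above BA (1.15). None of the 7 members found by name differed 2-fold between prefixes at 12 h, against backgrounds of 1.84% higher and 1.68% lower for BF against Control, 0.591% and 1.12% for BA against Control, and 1.16% and 0.757% for BF against BA. The BF column at 12 h is the column with pancreatic acinar genes, and the part of that tissue in the result was not tested.

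At 24 h Control was the highest column for CCND1, CCNE1, CCNE2, CCNB1 and CDC2, BA for CCNA2, and BF for CCND2 and CCNB2. CCND1, CCNE1 and CCNE2 were 2-fold lower in BF than in Control (background 1.31%), with log2 ratios of -1.48, -1.27 and -1.02, and no member was 2-fold higher (0.768%). In BA against Control CCND1 and CCNE1 were 2-fold lower (background 1.32%), at -1.34 and -1.38, CCNE2 was at -0.92, and no member was 2-fold higher (0.721%). Both comparisons share the Control column. Between BF and BA the log2 ratio was -0.14 for CCND1, 0.11 for CCNE1 and -0.10 for CCNE2. With columns scaled to a common median gene 2 members were 2-fold lower than Control in BF and 2 in BA, since CCNE2 in BF fell short.

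CCNA2 was the member whose BF and BA columns at 24 h stood apart, at 28.2 RPKM in BF and 59.8 in BA, a log2 ratio of -1.06 (background 0.969% of genes lower and 0.887% higher). The ratio turns to the opposite sign if the prefixes are exchanged, as the sample descriptions read. CCNB1 and CDC2 lay the other way round, at 0.45 and 0.56 higher in BF than in BA. Within a column, CCNA2 was 0.89 times CCNB1 in BA, 0.49 times in Control and 0.31 times in BF, values that no scaling of a column can change. For CDC2 the same quotient was 1.13 in BA, 1.42 in Control and 1.23 in BF.

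**Figure D3:**
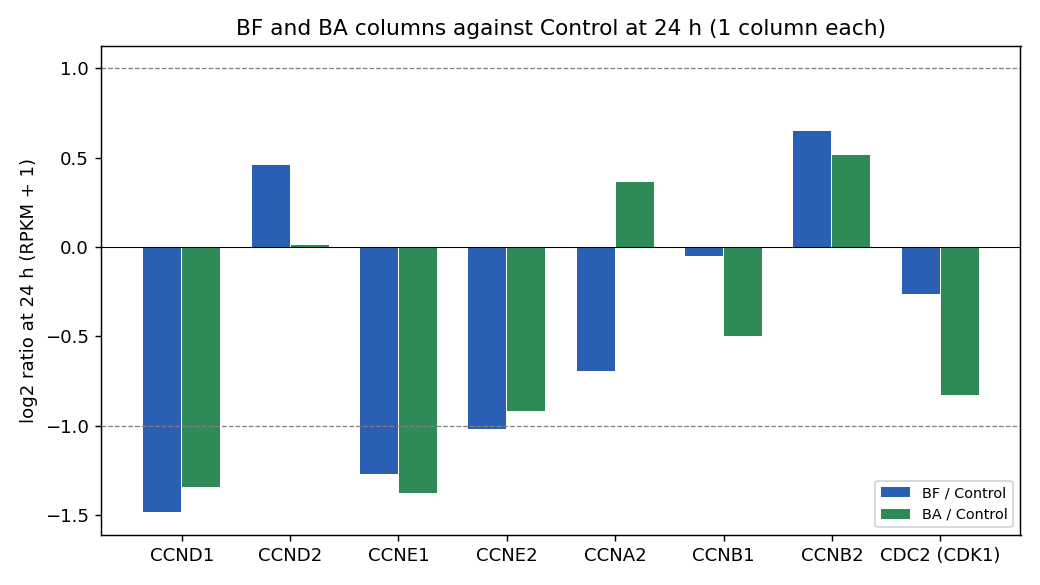
Log2 ratio at 24 h (RPKM + 1) of the BF column (blue bars) and of the BA column (green bars) to the Control column for each gene, with dashed lines at 2-fold. CCND1 and CCNE1 lie below the lower line in both. CCNA2 is the only gene whose bars point in opposite directions, at -0.69 in BF and 0.36 in BA.

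Over the 4 times together, limma called 0 of the 6 members tested between any pair of prefixes. The backgrounds were 0.319% of genes higher and 0.485% lower in BF than in Control, 0% and 0.0709% in BA against Control, and 0.0118% and 0% in BF against BA. CCND1 came closest, at -1.42 in BF against Control (SE 0.41, 95% interval -2.34 to -0.49, adjusted p = 0.13) and -1.16 in BA against Control (SE 0.41, interval -2.08 to -0.23, adjusted p = 0.17). It was lower than Control in 4 of 4 times in each, and it was the only member with an unadjusted p under 0.05. CCNB1 differed by -0.071 in BF against Control (interval -0.58 to 0.43) and CCNA2 by -0.14 (interval -0.66 to 0.37). This fit cannot test a difference at a single time.

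Over the 12 columns the log2 levels of CCNA2, CCNB1 and CDC2 were correlated with Pearson's r of 0.97 to 0.99, and CCNE1 with CCNE2 with r = 0.94. CCND1 had r of 0.59 to 0.74 with the other members. These are descriptions over columns that share 4 times and prefixes, in which the 3 columns at 24 h carry most of the range. The genes most like CCNB1 were UBE2C, DLGAP5, FAM83D, PRR11 and LOC680531 (r from 0.9967 to 0.9985 over 12 columns). Those most like CCNA2 were SPC25, NDC80, KIF2C, KNTC1 and PLK1 (r from 0.9933 to 0.9976), of which SPC25, NDC80, KNTC1 and KIF2C act at the kinetochore. For CCND1 they included ILKAP, MRPL1, TINF2 and SEPHS1 (r from 0.9515 to 0.9787).

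The rest of the machinery was read from lists of 100 further symbols, of which 68 were found and 58 passed the filter. A gene that is low before 24 h passes only if it is high at 24 h, so the counts describe the lists and support nothing about them. Over all genes tested 30.6% were called higher from 0 to 24 h, the share beside which each count stands. Activators and brakes of CDKs rose together: all 8 tested were higher at 24 h than at 0 h, with a median of 1.78 beside 0.21 for all genes. They include CKS2, a small CDK-binding subunit (2.57, limma adjusted p = 1.2e-04), PKMYT1, a kinase that holds CDK1 inactive (2.51, adjusted p = 9.1e-04), and CDC25C, the phosphatase that releases it (1.97, adjusted p = 2.7e-04). The level of CKS2 in Control was 4.94 RPKM at 0 h and 43.3 at 24 h. In BF the corresponding values were 4.43 and 37.6, and in BA 6.10 and 27.1.

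CDK inhibitors rose in 3 of 4 tested (median 2.73). CDKN3, a phosphatase of CDKs, changed by 4.31 (limma adjusted p = 3.2e-06), CDKN2C (p18), an inhibitor of CDK4 and CDK6, by 2.75 (adjusted p = 3e-05), and CDKN1A (p21) by 2.72 (adjusted p = 2.8e-04). The 24 h level of CDKN1A was 86.8 RPKM in the Control column, 78.9 in BA and 30.4 in BF. CDKN1B (p27) was the one not called.

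Cyclin degradation genes were called higher for 11 of 14 (median 0.67, beside 30.6% of all genes), led by CDC20, the activator of the anaphase-promoting complex (4.63, limma adjusted p = 8.1e-06), UBE2C, its ubiquitin-conjugating enzyme (4.54, adjusted p = 9.3e-06), and FBXO5, its inhibitor (2.95, adjusted p = 9.1e-05). Of the pocket protein and E2F list 2 of 4 were called higher (median 0.62), E2F1 (3.51, adjusted p = 2.9e-04) and E2F3 (0.86, adjusted p = 0.0040). In the list on transcription of mitotic genes 3 of 4 were called higher (median 1.34): FOXM1 (2.76, adjusted p = 4.7e-05), MYBL1 (1.86, adjusted p = 0.011) and LIN54 (0.82, adjusted p = 0.0019).

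Most of the other cyclins and CDKs have roles outside the cycle. Of 12 other cyclins tested 4 were called higher at 24 h (median 0.15, a share close to the 30.6% of all genes), among them CCNF (1.54, limma adjusted p = 0.036), CCNG1 (0.89, adjusted p = 0.044) and CCNC (0.47, adjusted p = 0.0091). Of 12 other CDKs, CDC2 included, 6 were called higher (median 0.33), led after CDC2 by CDK2, the partner of cyclins E and A (1.51, adjusted p = 0.0053), and CRKRS (0.40, adjusted p = 0.016). The 24 h level of CDK2 was 38.7 RPKM in the Control column, 35.1 in BA and 15.7 in BF. None of the 7 lists had a gene called lower at 24 h, beside 5.54% of all genes tested. The raised 0 h values of the E-type cyclins in BA had counterparts among some of the genes named, picked after their values were seen. CCNF was at 11.0 RPKM in BA, 3.22 in Control and 3.64 in BF. PKMYT1 was at 2.11, 0.31 and 0.35, and MYBL1 at 4.45, 1.81 and 0.99. Other named genes were not raised: CDKN1A was at 7.98 RPKM in BA and 9.24 in Control, CDKN3 at 0.37 and 0.43, and FBXO5 at 0.54 and 0.77.

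**Figure D4:**
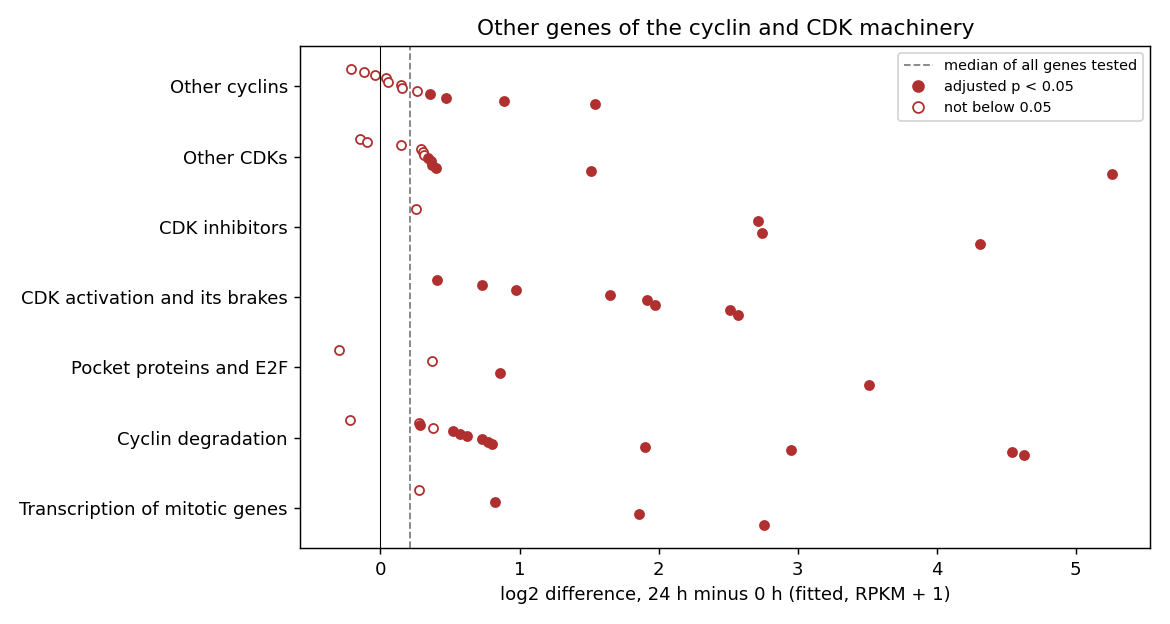
Fitted log2 difference between 24 h and 0 h for the genes of each list that passed the filter, filled where limma's adjusted p was below 0.05, with the median of all genes tested (0.21) as a dashed line. All 8 genes of CDK activation and its brakes are filled, whereas most other cyclins lie near the dashed line.

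The split between CCNA2 and CCNB1 at 24 h recurred across these lists, a comparison chosen after the values were seen. The study gives a list of genes as its DNA replication set, to which CCNA2 belongs and the other members found do not. Among genes of the lists called higher at 24 h by at least 1 on the log2 scale, the 5 in that set (CDK2, CDKN1A, E2F1, CDC20 and FBXO5) were all lower in BF than in BA at 24 h, with log2 ratios from -1.73 to -0.94. The 13 outside it, CDC2 among them, were all higher in BF than in BA, from 0.036 to 0.80. With no limit on the size of the rise, 6 of 6 list genes in the set were lower in BF, and of 31 outside it 24 were higher and 7 lower, the 7 by at most 0.13 (CDC25A). Of the other members called higher at 24 h, CCNE1 (0.11) and CCNB1 (0.45) were higher in BF and CCNE2 (-0.10) was lower. The 5 genes most like CCNA2 over the 12 columns were all in the set, and 0 of the 5 most like CCNB1 were. Likeness was taken over columns that include BF and BA at 24 h, so this is no separate observation of the split. Exchanging the prefixes turns every one of these signs.

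The same held over the whole table. Of all genes called higher at 24 h by at least 1 on the log2 scale, 73 of 74 in the set were lower in BF than in BA at 24 h (median -0.997), against 64 of 371 outside it (median 0.29). At 0, 4 and 12 h the shares lower in BF were 77.0%, 40.5% and 24.3% in the set and 89.8%, 41.0% and 41.2% outside it. Whether genes of the set and other genes can be compared between BF and BA at 24 h was not tested, nor was their comparison with Control. The 24 h values of CCNA2 relative to CCNB1 and CDC2 therefore carry that uncertainty. So do the 24 h values given above for other genes of the set, such as CDK2, CDKN1A, E2F1, CDC20 and FBXO5.

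**Figure D5:**
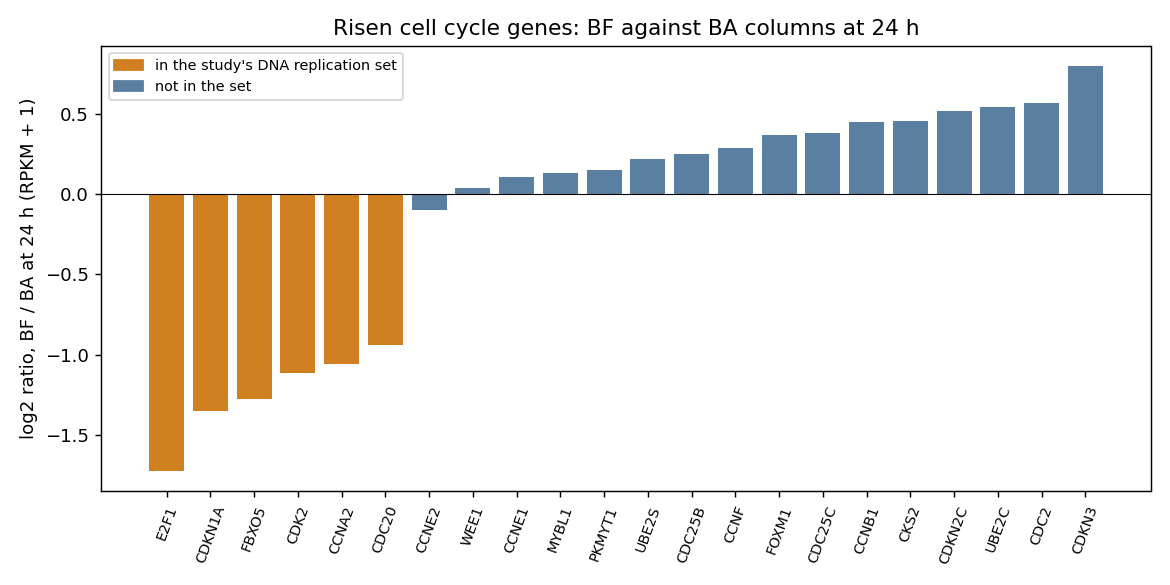
Log2 ratio of the BF to the BA column at 24 h (RPKM + 1) for members and list genes called at least 2-fold higher at 24 h than at 0 h, orange for genes in the study's DNA replication set and blue for the rest. All 6 orange bars, CCNA2 included, lie at or below -0.94, and the lowest blue bar is CCNE2 at -0.10.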

How the data were processed

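Whole rat liver of 3 groups was sampled at 4 times around PH and its RNA sequenced. The authors converted reads to RPKM and deposited 1 table, in which each column combines 2 runs. The submitters' processing notes name CASAVA, Bowtie 0.12.2 and the builds rn4 and mm8 with no role; the annotation and the counting tool are not given in the sources used here. Since the runs were averaged, reads could not be recovered and depth is unknown. Of 14692 genes listed, 1 carried no value and 2303 had 0 throughout.

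Values were analysed as log2(RPKM + 1) with limma 3.58.1 (R 4.3.3) with a trend, for 8459 genes whose mean reached 1 RPKM, with prefix and time as additive terms. Its p-values are two-sided and adjusted by Benjamini-Hochberg over all genes within each of 7 contrasts, with a threshold of 0.05. The residual is the spread of prefix by time, not between rats. The fit was tested on simulated data. Other computations used Python 3.11.15, numpy 2.4.6, pandas 2.3.3 and matplotlib 3.10.9. Motifs and synonyms came from RefSeq tables of GRCr8, used for no coordinate of the files.

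The members and lists were chosen with earlier results of these data known. Of each list, up to 3 genes with the largest called change from 0 to 24 h are named, and 5 genes most like CCND1, CCNA2 and CCNB1, of which 1 is not reported here. Alternatives were pseudocounts of 0.1 and 0.5 RPKM, no filter, 1.5-fold, rescaled columns, no trend, each prefix or time left out, and exchanged prefixes. Leaving out the BA column at 4 h or the BF column at 12 h was chosen after seeing the data.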

Additional observations from a re-analysis of the deposited data

Results flagged for a closer look

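Members that moved in opposite directions in a pair of prefixes, by at least 0.5 on the log2 scale each, are given here. Each prefix has 1 column per time, so none of the differences was tested.

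Between 0 and 12 h CCND1 changed by -1.07 in Control and 0.62 in BF, a difference of -1.69. CDC2 over the same interval changed by -0.51 in Control, 0.67 in BF and -2.09 in BA, so that Control differed from BF by -1.17 and BF from BA by 2.76. CCNE2 changed by 0.95 in BF and -1.34 in BA by 12 h, a difference of 2.29.

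CCNE1 from 0 to 4 h changed by 0.90 in Control, 1.11 in BF and -1.39 in BA. Control differed from BA by 2.28 and BF from BA by 2.50. At 12 h the changes of CCNE1 were 0.90 in Control, 1.91 in BF and -0.91 in BA, with differences of 1.80 and 2.82. The high BA columns at 0 h (5.66 RPKM for CCNE1, 5.55 for CCNE2 and 4.72 for CDC2) enter each of the comparisons with BA.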

How the results depend on the processing

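The fit takes the prefix as a block over time. No paired analysis was possible because the labels number no replicates to pair beyond that.

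Of the recomputed counts of members 191 stayed within 1.5 times and 16 moved. Of the other values 170 kept their direction and side of the threshold, 24 fell short of it, 2 came to pass it and 1 reversed. For counts that moved the cause was not tested. Leaving out a prefix in turn gave 0 to 2 members lower at 4 h than at 0 h, 0 to 1 higher at 12 h, 2 to 5 higher at 24 h than at 0 h and 2 to 5 higher at 24 h than at 12 h. CCND1, the 1 member called lower at 4 h, was lost without the filter (0) and without the BA column at 4 h (0). With rescaled columns 3 of 6 members were higher at 24 h than at 12 h. With a pseudocount of 0.1 or 0.5 RPKM 6 members, in place of 4, were 2-fold higher at 24 h in Control. At 1.5-fold 5 members were higher at 24 h in BA, and 1 was higher in BF than in Control at 24 h, as with a pseudocount of 0.1 RPKM (1). With exchanged prefixes 1 member was higher and 0 lower in BF than in BA at 24 h. The difference of CCND1 between BF and BA reversed to 0.19 without the 0 h columns, and ran from -0.78 to 0.19 with each time left out in turn. The share of genes 2-fold higher at 24 h in Control was 5.97% without the filter. With unknown depth, values such as CCNB2 below 0.1 RPKM rest on an unknown number of reads.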
